A study of Mus musculus with 2 samples.

Results

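Srf, Myocd and genes of actin-binding proteins were examined in cultured mouse skeletal myoblasts, the dividing precursor cells of muscle fibres. The 10 genes (Srf, Myocd, Tagln, Cnn1, Cnn2, Smtn, Synpo2, Lmod1, Vcl and Cald1) were chosen by name for their place in the smooth muscle and stress fibre programme. Every probe set that the platform annotation assigns to 1 of them alone was taken, which gave 20 of the 34945 probe sets with 1 gene name, and 10 of 18193 named genes. RNA came from 1 myoblast culture with a knockout of Foxj3 (Foxj3 KO), a forkhead transcription factor gene, and from 1 culture with the intact gene (wild type, WT). Each was hybridised to 1 Affymetrix expression array. Both cultures were at passage 3, grown in DMEM with 20% serum and harvested at 80% confluency. The sources used here do not give strain, age, the muscle of origin or the knockout allele. The comparison asks how signal of the SRF programme differs between myoblasts without and with Foxj3. With 1 array per group there was no replicate check, no test was possible, and every difference is a difference between these 2 arrays.

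Serum response factor, the product of Srf, is a MADS-box transcription factor that binds a short A/T-rich element, the CArG box. It acts with cofactors of 2 kinds: myocardin and the related MRTF proteins, which drive genes of contraction and the actin cytoskeleton, and the ternary complex factors of the Ets family, which drive immediate early genes. MRTFs are held in the cytoplasm by monomeric actin and enter the nucleus as actin polymerises into filaments, and SRF is required for skeletal muscle growth and for actin gene expression in muscle cells. Transgelin, calponin, smoothelin, leiomodin and caldesmon are known as markers of contractile smooth muscle, although several are also made in other cells with stress fibres.

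Promoter sequences were available in RefSeq (build GRCm38.p6) for 8 of the 10 genes, in windows of 300 bases that run from 250 bases before the annotated start to 50 after it. Tagln and Myocd were not in that table. A CArG box was found in 3 of the 8 genes, Srf, Vcl and Cnn2, and in 1.63% of all 32851 promoters of the table. The CArG box reads the same on both strands. A MEF2 box, the element of the MADS-box factors related to SRF, was searched on both strands and found in Synpo2 alone among the 8, and in 3.19% of all promoters. The promoters with either box are shown because they hold the elements that SRF and MEF2 factors are known to bind. They are written 5′ to 3′ on the strand of the gene, with CArG boxes in capitals in the first 3 and the MEF2 box in capitals in the last. None of these promoters held both kinds of box.
Srf (GRCm38.p6, chr17:46556113-46556412, minus strand): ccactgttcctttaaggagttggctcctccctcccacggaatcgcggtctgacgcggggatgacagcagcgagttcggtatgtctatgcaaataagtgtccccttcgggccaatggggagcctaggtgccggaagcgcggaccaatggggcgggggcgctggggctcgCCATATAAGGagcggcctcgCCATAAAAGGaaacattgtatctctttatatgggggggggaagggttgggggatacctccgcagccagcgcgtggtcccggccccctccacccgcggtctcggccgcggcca
Vcl (GRCm38.p6, chr14:20929148-20929447, plus strand): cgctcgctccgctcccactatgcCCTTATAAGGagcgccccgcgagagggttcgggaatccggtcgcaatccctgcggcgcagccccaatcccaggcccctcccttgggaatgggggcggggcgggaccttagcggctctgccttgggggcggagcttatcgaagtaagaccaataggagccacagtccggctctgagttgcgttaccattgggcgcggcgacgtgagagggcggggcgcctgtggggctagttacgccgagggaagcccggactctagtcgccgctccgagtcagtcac
Cnn2 (GRCm38.p6, chr10:79988350-79988649, plus strand): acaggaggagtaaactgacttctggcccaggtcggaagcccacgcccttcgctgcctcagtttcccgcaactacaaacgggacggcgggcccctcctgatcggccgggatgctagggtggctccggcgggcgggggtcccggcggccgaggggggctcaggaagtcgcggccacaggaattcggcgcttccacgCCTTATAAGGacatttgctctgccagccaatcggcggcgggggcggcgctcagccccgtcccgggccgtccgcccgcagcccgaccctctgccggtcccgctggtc
Synpo2 (GRCm38.p6, chr3:123236100-123236399, minus strand): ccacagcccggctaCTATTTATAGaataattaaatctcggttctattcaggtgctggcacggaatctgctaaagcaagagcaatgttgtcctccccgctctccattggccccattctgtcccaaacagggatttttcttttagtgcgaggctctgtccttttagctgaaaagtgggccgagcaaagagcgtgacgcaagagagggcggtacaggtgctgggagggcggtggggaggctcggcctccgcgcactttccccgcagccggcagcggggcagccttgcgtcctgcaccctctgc
The Srf promoter held 2 CArG boxes, with first bases 82 and 62 bases before the start, and the boxes of Cnn2 and Vcl began 56 and 227 bases before it. The Cnn2 and Vcl boxes both read CCTTATAAGG. The MEF2 box of Synpo2 began 236 bases before the start. A match describes the letters in the window and not binding.

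The signal is the authors' linear intensity in arbitrary units. A detection floor was set at the 40th percentile of the values of both arrays, 47.04, and a probe set over it on at least 1 array counted as measured. Of the 20 probe sets of the 10 genes 15 were measured, and 8 genes had at least 1 such probe set. Ratios are log2 values of Foxj3 KO over WT, and 2-fold was the threshold for a call. The brightest probe set of each gene was at least 2-fold higher in Foxj3 KO for 3.73% of 14597 measured genes and at least 2-fold lower for 6.72%. The median signal was 63.9 on the Foxj3 KO array and 62.0 on the WT array. Foxj3 itself read 77.3 in Foxj3 KO and 496 in WT by its brightest probe set, 99.4 and 79.7 by another, and 10.98 and 20.9 by the last, under the floor on both arrays. Which of these lie in the deleted part is not given in the sources used here.

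**Figure D1:**
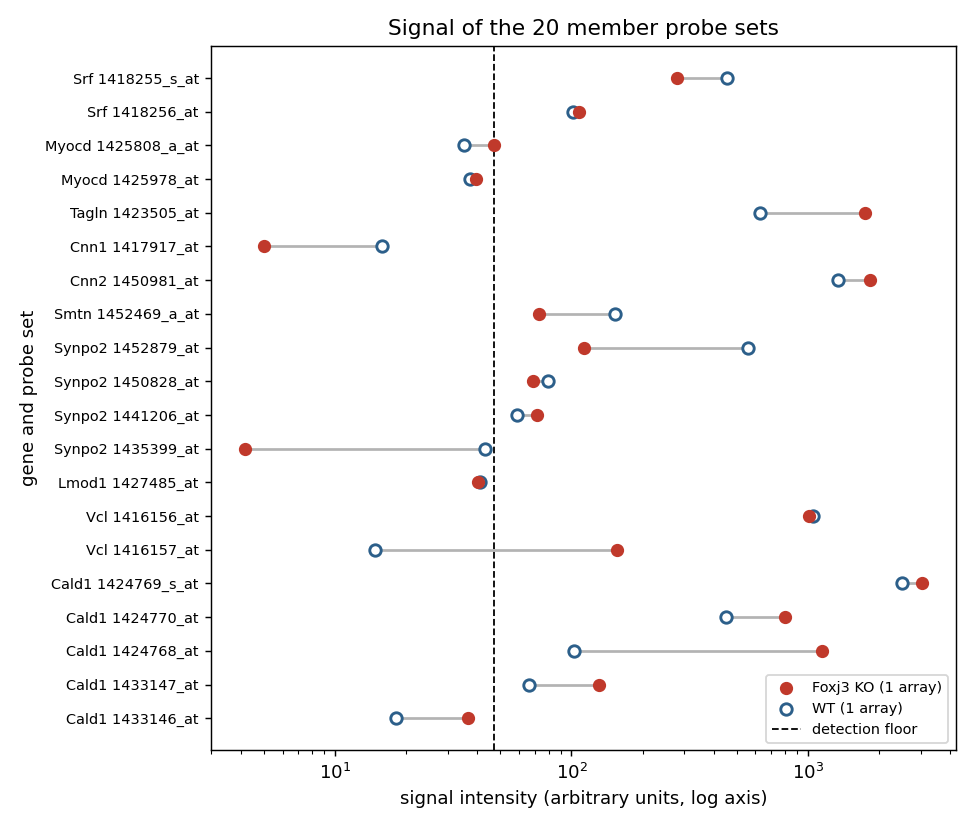
Signal intensity of the 20 probe sets of the 10 genes on the Foxj3 KO array (filled) and the WT array (open), on a log axis, with the detection floor of 47.04 dashed. Cald1 lies to the right in Foxj3 KO at all 5 probe sets, Synpo2 to the left at 3 of 4, and Cnn1 and Lmod1 lie under the floor on both arrays.

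Srf was lower in Foxj3 KO by its brighter probe set and level by the other. The probe set 1418255_s_at read 278 in Foxj3 KO and 456 in WT, a log2 ratio of -0.71 or 1.64-fold lower, which is under the 2-fold threshold. The probe set 1418256_at read 108 and 101, a log2 ratio of 0.08. Both were designed from the same sequence record, and their ratios differ in sign. The suffix _s_at marks a probe set whose probes can match transcripts of more than 1 gene. The distance of 0.80 between the 2 log2 ratios is close to the median of 0.82 over the 6251 genes with more than 1 measured probe set.

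Of the cofactors of SRF, myocardin was at the floor and the others were under 2-fold. Myocd, the cofactor specific to smooth and cardiac muscle, read 47.2 in Foxj3 KO and 35.0 in WT at 1425808_a_at, and 39.4 and 37.3 at 1425978_at. Just 1 of these 4 values lay over the floor, and barely, so Myocd gives no usable ratio. Mrtfa, which encodes an actin-regulated cofactor made in most cells, read 188 in Foxj3 KO and 170 in WT (log2 ratio 0.14). Its relative Mrtfb read 379 and 367 (0.05), with log2 ratios of -0.82 and 0.03 at its other probe sets, each under the floor on 1 array.

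The ternary complex factors pointed in different directions. Elk3 read 586 in Foxj3 KO and 381 in WT (log2 ratio 0.62), and 2 of its 3 other measured probe sets were also above 0. Elk1 read 74.8 and 111 (-0.57). Elk4 read 240.4 and 315 (-0.39), while both other measured probe sets had the opposite sign, at 0.77 and 0.68. All 11 genes on the list of cofactors and modulators were measured, and 0 reached 2-fold in either direction. Over all measured genes 3.73% were higher and 6.72% lower, so a count of 0 among 11 genes sets them little apart. Their median log2 ratio was 0.09 against -0.06 over all measured genes. The members farthest from 0 were Foxo4, a forkhead factor known to restrain myocardin, at 188 and 107 (0.81), and Klf4, a repressor of smooth muscle genes, at 94.8 and 153 (-0.69).

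Cnn1 and Lmod1 gave no signal over the floor on either array. Cnn1, which encodes the calponin of differentiated smooth muscle, read 4.99 in Foxj3 KO and 15.9 in WT. Lmod1, which encodes the smooth muscle leiomodin that nucleates actin filaments, read 40.2 and 41.1. Both genes have 1 probe set on the array, and no fold is given because both values are under the floor. Other genes of contractile smooth muscle, given below, were over it. Whether transcripts were present below that limit cannot be read from these values.

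Tagln, Cnn2 and Cald1, which encode proteins of actin stress fibres in many cell types, were brighter on the Foxj3 KO array at every probe set. Tagln encodes transgelin, a calponin-related protein that cross-links actin filaments, and read 1749 in Foxj3 KO and 626 in WT, 2.79-fold higher (log2 ratio 1.48). Among all measured genes, 149 had a log2 ratio of this size or above, Tagln included. Tagln has 1 probe set here, so it could not be set against another.

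Cnn2, which encodes the calponin of non-muscle and smooth muscle cells, read 1827 in Foxj3 KO and 1341 in WT, 1.36-fold higher (log2 ratio 0.45) and under the threshold. The probe sets of its relatives differed among themselves. Cnn3, which encodes acidic calponin, read 3363 and 2984 by its brightest probe set (0.17), and 4 more probe sets lay between 0.05 and 0.19, all with the suffix _x_at, which marks probes that can match other transcripts. The probe set of Cnn3 without that suffix, 1426724_at, read 2169 and 892 (1.28). Tagln2, the transgelin of non-smooth-muscle cells, read 675 and 682 (-0.01), with -0.38 and -0.85 at its other probe sets.

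Cald1 encodes caldesmon, which binds actin and tropomyosin and holds back myosin, in a long form of smooth muscle and a short form of other cells. Its 5 probe sets were all higher in Foxj3 KO but by very different amounts. The brightest, 1424769_s_at, read 3029.9 in Foxj3 KO and 2489 in WT, a log2 ratio of 0.28. The probe set 1424770_at read 796 and 449.96 (0.82), and 1424768_at read 1151 and 103 (3.49), 11.2-fold higher. These 3 were designed from the same sequence record. The 2 from another record read 131 and 65.9 at 1433147_at (0.99, just under 2-fold) and, under the floor, 36.4 and 18.1 at 1433146_at.

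The probe set 1424768_at stood among the 15 highest log2 ratios of 25057 measured probe sets. The distance between the lowest and highest log2 ratio of Cald1, 3.21, exceeded that of 99.3% of genes with more than 1 measured probe set. The direction for Cald1 was thus shared by its probe sets, and its size was not. The positions of the probe sets within the caldesmon transcripts were not used here, so the long and short forms cannot be told apart.

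Vcl encodes vinculin, which links integrin adhesions to actin filaments, and was level at its bright probe set. It read 1014 in Foxj3 KO and 1051 in WT at 1416156_at, a log2 ratio of -0.05. The other probe set, 1416157_at, from the same sequence record, read 156 and 14.7, which is under the floor in WT and gives at least 3.33-fold higher in Foxj3 KO. The 2 probe sets therefore disagree on Vcl by 1.79 on the log2 scale, more than in 88.9% of genes with several measured probe sets.

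Smtn and Synpo2 were lower in Foxj3 KO by at least 2-fold. Smtn encodes smoothelin, an actin-binding protein of contractile smooth muscle, and read 72.7 in Foxj3 KO and 152 in WT at its 1 probe set, 2.10-fold lower (log2 ratio -1.07). This value lies close to the threshold and to the floor. With the floor at the 60th percentile the log2 ratio was -0.82.

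Synpo2 encodes synaptopodin 2, also called myopodin, which is found at the Z-discs of striated muscle and on the stress fibres of smooth muscle and binds filamin and actinin. Its brightest probe set, 1452879_at, read 113 in Foxj3 KO and 560.1 in WT, 4.97-fold lower (log2 ratio -2.31), and 75 measured probe sets had a ratio this low or lower. The others did not repeat this size. The probe set 1450828_at read 68.9 and 79.3 (-0.20), 1441206_at read 71.6 and 59.0 (0.28), and 1435399_at read 4.17 and 43.2, under the floor on both arrays. The mean log2 ratio over the 3 measured probe sets was -0.75, under 2-fold.

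**Figure D2:**
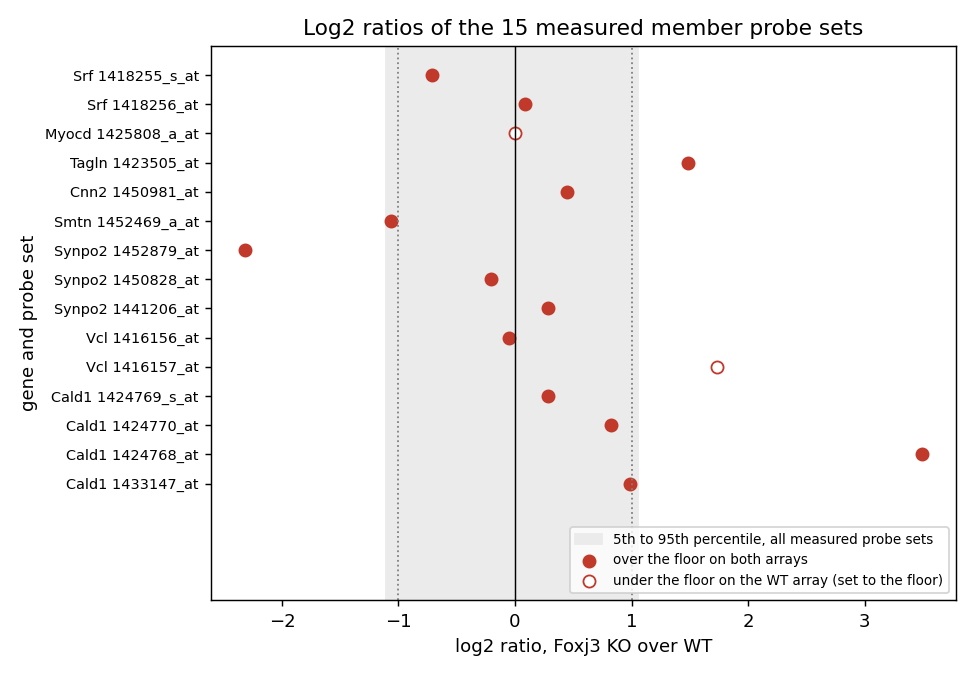
Log2 ratios of Foxj3 KO over WT for the 15 measured probe sets of the 10 genes, with 0 as a solid line, 2-fold as dotted lines and the 5th to 95th percentile of all 25057 measured probe sets shaded (-1.11 to 1.05). Open points were under the floor in WT. Cald1 1424768_at (3.49) and Synpo2 1452879_at (-2.31) lie farthest out, each beyond the other probe sets of its gene.

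Counted by brightest probe set, 1 of the 8 measured genes, Tagln, was at least 2-fold higher in Foxj3 KO (12.5%, beside 3.73% of all measured genes). At least 2-fold lower were 2 of 8, Smtn and Synpo2 (25%, beside 6.72%). With 8 genes, each call moves these shares by 12.5 percentage points. The median log2 ratio was -0.02 over the 8 genes and -0.06 over all measured genes. Of the 8 genes 4 lay above 0 (50%, beside 46.3% of all measured genes) and 4 below. Without Myocd, whose ratio is not usable, the median was -0.05, with 3 above 0 and 4 below, an alternative chosen after seeing the data. By probe set, 3 of 15 were at least 2-fold higher (20%, beside 5.62% of all measured probe sets) and 2 of 15 at least 2-fold lower (13.3%, beside 6.67%). These 5 probe sets belong to 5 genes, Tagln, Cald1, Vcl, Smtn and Synpo2. In the 3 of these genes with other measured probe sets, no other probe set reached 2-fold. The 10 genes thus had no common direction.

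**Figure D3:**
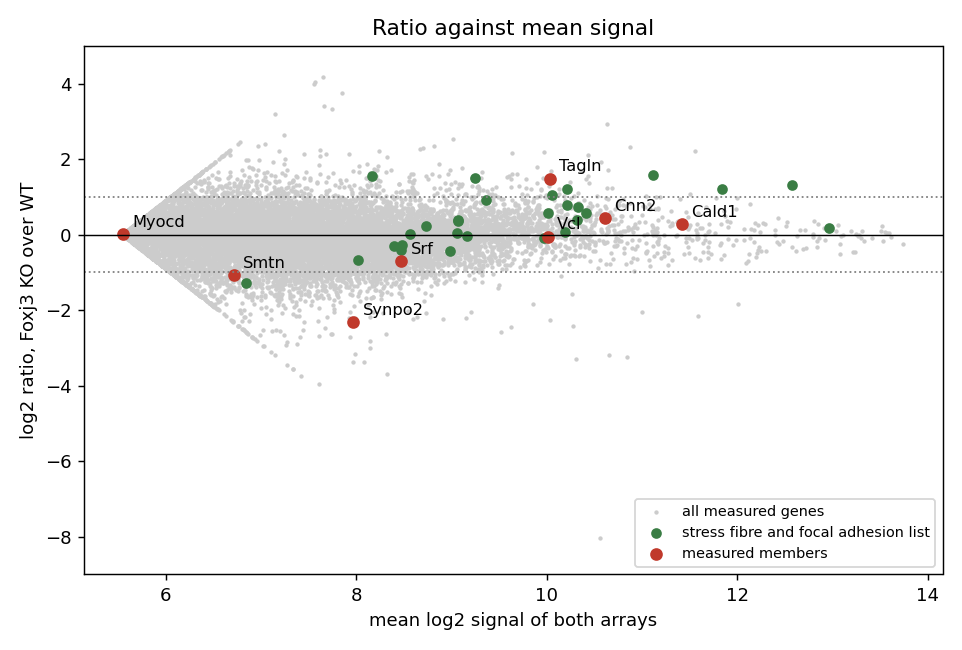
Log2 ratio of Foxj3 KO over WT against the mean log2 signal of both arrays, for 14597 measured genes (grey), the 28 genes of the stress fibre and focal adhesion list (green) and the 8 measured members (red, named). Dotted lines mark 2-fold. Tagln lies above 2-fold, Smtn and Synpo2 below it, and the brighter Vcl, Cnn2 and Cald1 near 0.

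Smooth muscle contractile genes outside the 10 held members past 2-fold on the lower side by brightest probe set. All 19 genes of this list were measured, and 3 of them (15.8%, beside 6.72% of all measured genes) had at least 2-fold less signal in Foxj3 KO, while 0 had 2-fold more (beside 3.73%). The list's median was -0.15. By probe set, 3 of 35 had at least 2-fold more signal (8.57%, beside 5.62%) and 5 of 35 at least 2-fold less (14.3%, beside 6.67%). The 3 belong to Tpm1, a tropomyosin gene (log2 ratios of 1.84 and 1.26, beside -1.68 at another probe set), and Csrp1, a LIM protein gene (1.49, under the floor in WT), both named after their values were seen. The 3 lower genes were Pdlim3, a PDZ and LIM protein gene of muscle Z-discs, at 87.8 in Foxj3 KO and 430 in WT (4.89-fold lower), Myh11, the smooth muscle myosin heavy chain, at 84.8 and 338 (3.99-fold lower), and Pgm5, which encodes a protein of muscle adhesion sites, at 56.6 and 152 (2.68-fold lower). None of these had another measured probe set.

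The actins and the myosin regulators of smooth muscle differed by less than 2-fold. Acta2, the smooth muscle actin gene, read 5081 in Foxj3 KO and 6049 in WT (log2 ratio -0.25) by an _s_at probe set that may also match other actins. Its remaining probe sets read 76.4 and 71.9 (0.09), and 20.1 and 50.3. Actg2, the enteric smooth muscle actin gene, read 120.4 and 134 (-0.15). Myl9, which encodes a regulatory myosin light chain, read 513 and 355 (0.53), and Mylk, which encodes the kinase for such light chains, read 111 and 152 (-0.45).

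Of 28 genes of stress fibres and focal adhesions, all measured, 7 had at least 2-fold more signal in Foxj3 KO (25%, beside 3.73% of all measured genes). At least 2-fold less signal was found for 1 (3.57%, beside 6.72%), and 20 ratios lay above 0 (71.4%, beside 46.3%). The median log2 ratio was 0.37, against -0.06 over all measured genes. The list holds bright genes, 27 of 28 with a mean signal of at least 4 times the floor. Among the 5704 measured genes that bright, 3.79% passed 2-fold upwards and 5.87% downwards, with a median of -0.10. By probe set 16 of 75 were at least 2-fold higher (21.3%, beside 5.62%) and 5 of 75 at least 2-fold lower (6.67%, the same share as over all measured probe sets). The list was chosen with results of these data known, and the arrays carry no replicate for any of its genes.

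Tpm4, a tropomyosin gene of non-muscle cells, read 3860.3 in Foxj3 KO and 1279.9 in WT, 3.02-fold higher. Itgb1, the beta 1 integrin gene, read 490.1 and 168, 2.92-fold higher, with both other measured probe sets also past 2-fold. Vasp, which encodes a promoter of actin filament elongation, read 1029 and 361, 2.85-fold higher. Actb, the beta actin gene, read 9663 and 3869.8, 2.497-fold higher, and 1545 and 1069.9 by its other probe set (log2 ratio 0.53).

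Myh9, Zyx and Flna, named here after their values were seen, were the other genes past 2-fold. Myh9, the heavy chain of non-muscle myosin II, read 5587 in Foxj3 KO and 2411 in WT (1.21), while its 4 other probe sets ranged from -0.44 to 1.98. Zyx, which encodes the focal adhesion protein zyxin, read 1812 and 782 (1.21), with -0.07 at its other probe set. Flna, which encodes the actin cross-linker filamin A, read 1526 and 743 (1.04) at 1 probe set. The gene at least 2-fold lower was Ccn2, also named after its value was seen, which encodes a secreted matricellular protein and read 73.8 and 179 (-1.28). Of the 7 higher genes 4 had other measured probe sets, and in 2 of them, Actb and Itgb1, all shared the direction.

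**Figure D4:**
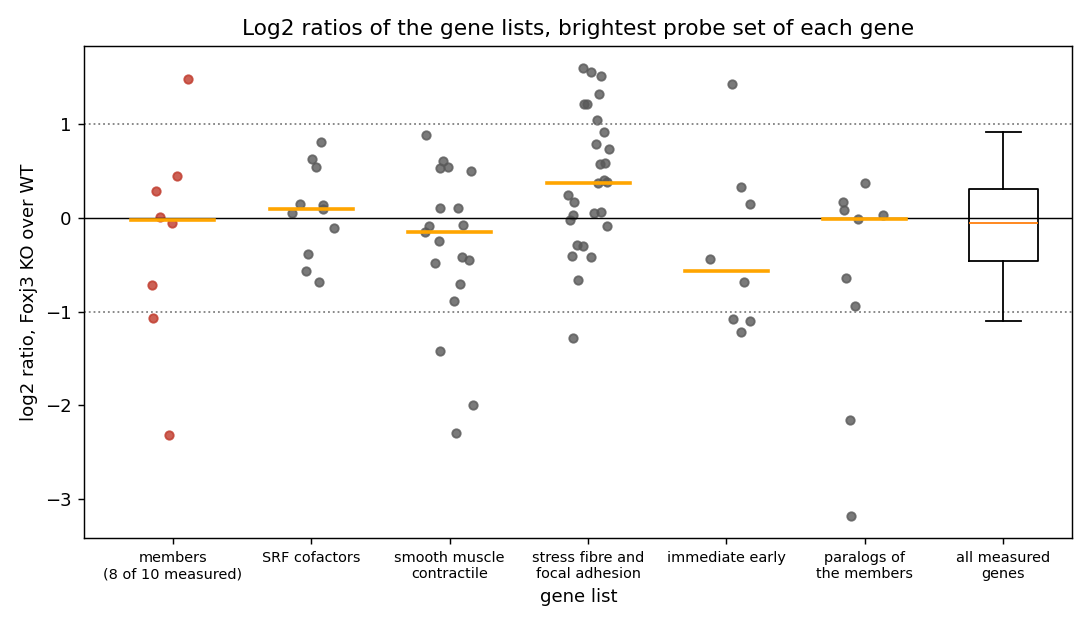
Log2 ratios of Foxj3 KO over WT by gene list, 1 point per measured gene at its brightest probe set, with list medians as orange bars, 2-fold as dotted lines, and all measured genes as a box (quartiles) with whiskers to the 5th and 95th percentiles. The points of Lmod2, Lmod3 and other genes under the floor on 1 array are bounds. The stress fibre list has its median at 0.37 and the immediate early list at -0.56.

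Immediate early genes, the targets of SRF with ternary complex factors, leaned towards lower signal in Foxj3 KO, with 8 of 9 genes measured and a median of -0.56 on the log2 scale. At least 2-fold lower in Foxj3 KO were 3 (37.5%, beside 6.72%) and at least 2-fold higher was 1 (12.5%, beside 3.73%). Egr1, a zinc finger factor induced by serum, read 303 in Foxj3 KO and 642 in WT, 2.12-fold lower. Junb, a subunit of AP-1, read 129.5 and 277, 2.14-fold lower. Mcl1, an inhibitor of apoptosis, read 323 and 751, 2.33-fold lower, with all 5 other probe sets below 0 and 2 of them past 2-fold. Those past 2-fold, the brightest included, all carry the suffix _x_at, and those without it gave -0.48, -0.18 and -0.75. Egr3 was the higher gene at 265 and 98.8, 2.68-fold higher, while 1436329_at, its second probe set, gave -0.62.

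Among 9 paralogs of the 10 genes, all measured, 2 passed 2-fold downwards (22.2%, beside 6.72%) and 0 upwards (beside 3.73%), around a median of -0.01. Both were striated muscle leiomodins. Lmod3 read 36.6 in Foxj3 KO and 426 in WT, at least 9.05-fold lower, and Lmod2 read 29.7 and 209.9, at least 4.46-fold lower. Their smooth muscle relative Lmod1 was under the floor on both arrays, as given above. Synpo2l, the relative of Synpo2 in heart and skeletal muscle, named after its value was seen, read 859 and 1341 (-0.64), and both other measured probe sets were also below 0.

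Genes with a CArG box had shares of calls near those of genes at large. Of all genes with a CArG box in a promoter of the table, 186 were measured, of which 8 (4.30%) passed 2-fold upwards and 15 (8.06%) downwards. Over the 11684 measured genes of that table the shares were 3.71% and 6.74%. The 11 measured genes with a box among the 10 members and the 5 lists had log2 ratios at their brightest probe sets from -0.71 (Srf) to 0.54 (Fhl2, a LIM cofactor gene of SRF, named after its value was seen), and 0 reached 2-fold. Other probe sets did, such as 1416157_at of Vcl, given above, and 1450629_at of Lima1 (1.85), also named after its value was seen. Tagln and the other genes at least 2-fold different by brightest probe set either had no CArG box in this short window or had no promoter in the table, which says nothing of boxes elsewhere.

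Markers of the labelled cell type were present on both arrays. All 8 myoblast markers were measured, with a median log2 ratio of 0.01, including Myod1 at 1751 in Foxj3 KO and 631 in WT, Myf5 at 724 and 731 and Pax7 at 627 and 513. Des read 1091 in Foxj3 KO and 2024 in WT, but 139 and 78.7 at its other probe set. Itga7 read 429.7 and 659, and Cdh15 264 and 386. The 8 ratios were 4 above 0 (50%, beside 46.3% of all measured genes) and 4 below. Of them 1, that of Myod1, passed 2-fold upwards (12.5%, beside 3.73%). By probe set, 4 of 12 were at least 2-fold higher (33.3%, beside 5.62%) and 0 at least 2-fold lower (beside 6.67%). Besides Myod1 these belong to Pax7 (1.27) and to Vcam1, named after its values were seen (2.59 and 2.97, beside 0.09 at its brightest). Markers of differentiated muscle were all 7 below 0 (0% above it, beside 46.3%), and 6 were at least 2-fold lower (85.7%, beside 6.72%). The summed signal of these markers was 5892 in Foxj3 KO and 25525 in WT. Their part in the lower values of Synpo2, Pdlim3, Lmod2 and Lmod3 was not tested. Of 6 smooth muscle markers, summing to 5604 and 6832, Acta2 gave the greatest part and 1, Myh11, was at least 2-fold lower (16.7%, beside 6.72%). All 6 are also on the smooth muscle contractile list above, so the call of Myh11 is the same one. Of 6 pericyte markers 3 were measured (summed signal 462 and 306), with Pdgfrb, Cspg4 and Kcnj8 under the floor on both arrays. Of 6 fibroblast markers 4 were measured (1021 and 903), with Thy1 and Lum under the floor. Their part in the higher values of Tagln and Cald1 was not tested. Endothelial markers (3 of 5 measured) summed to 259 and 184, and 1, Esam, was at least 2-fold higher (33.3%, beside 3.73%). Esam read 94.7 in Foxj3 KO and 45.1 in WT, under the floor. Leukocyte markers (3 of 5 measured, 549 and 607) included Csf1r at 276 in Foxj3 KO and 171 in WT and Adgre1 at 210.3 and 313. Ptprc, Cd68, Pecam1 and Tek were under the floor on both arrays. In bulk RNA, fewer cells of a type and less RNA per cell cannot be told apart.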

How the data were processed

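Per the labels' protocols, biotinylated cRNA from total RNA was hybridised to 1 array per culture. The authors deposited a linear intensity per probe set, never below 0; summarisation and scaling are not given in the sources used here, and the values were used as deposited. Per the file headers, whose hybridisation records were deposited by the authors beside the values and hold other settings without a unit, the arrays shared lot, hybridisation time, station and scan day and differed in fluidics module and scan time.

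Probe sets were named by the platform annotation, and symbols were updated through Entrez identifiers in a RefSeq table (GRCm38.p6); 34945 of 45037 probe sets had 1 symbol. Values under the floor (40th percentile, 47.04) were raised to it and log2 was taken. The brightest probe set stood for a gene. Ratios are KO over WT, so a fold against a value under the floor is a bound. No test was possible and none was run; precision is limited by the number of arrays. The 10 members, the 5 gene lists and the 7 marker lists were chosen with earlier results of these data known. Named were the members, Foxj3, 12 genes whatever their value, and up to 4 genes of each list past 2-fold, or the 2 largest. Genes of the marker lists were named without a rule, and others are marked. The calculation was tested on simulated data. Alternatives were 3 scalings, 2 floors, a pseudocount, other choices of probe set and other thresholds. The 300-base promoters were searched for CArG and MEF2 boxes. Python 3.11.15, pandas 2.3.3, NumPy 2.4.6 and statsmodels 0.14.6 were used.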

Additional observations from a re-analysis of the deposited data

How the results depend on the processing

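With 1 array per group no replicate could be left out. No paired analysis was possible because each group has 1 array. Of the 10 members, Tagln was at least 2-fold higher under quantile, equal-median and loess scaling, the other floors, the pseudocount and the probe set choices, with log2 ratios from 1.32 to 1.48. The mean over measured probe sets added Cald1 (1.40), for 2 higher members, and left 1 lower member, Smtn, since Synpo2 came to -0.75. By that mean 3.03% of all measured genes were higher and 4.29% lower. The lower members also numbered 1 with the floor at the 60th percentile and with the pseudocount (Smtn at -0.82 and -0.74) and with a 3-fold threshold, which left 0 higher. Over all measured genes 5.99%, 3.34% and 1.51% were lower at those 3 settings. There 1 member probe set was lower, and 5 were higher at 1.5-fold. The shares over all probe sets were not computed at these settings. The median over the members ranged from -0.30 to 0.22 and so had no settled sign; leaving out Myocd, chosen after seeing the data, changed neither count of members. Srf ranged from -0.76 to 0.08, the upper value without _s_at and _x_at probe sets. Stress fibre genes past the threshold numbered 11 higher and 2 lower of 28 at 1.5-fold, and 1 higher and 0 lower at 3-fold. Over all measured genes the shares were 12.8% higher and 19.3% lower at 1.5-fold, and 0.75% and 1.51% at 3-fold. At 2-fold, 5 stress fibre genes were higher with quantile scaling and with the mean over probe sets. With equal-median scaling, loess scaling and the pseudocount 6 were higher. With the pseudocount 0 were lower (beside 3.34%). The list's median stayed between 0.33 and 0.45. At other settings the lower smooth muscle contractile genes numbered 2 to 5, the lower immediate early genes 0 to 4 and the lower paralogs 2 to 4. The highest counts came at 1.5-fold and the lowest at 3-fold, where 19.3% and 1.51% of all measured genes were lower. Some of these counts also came at other settings. The 4 immediate early genes also came with the floor at the 20th percentile (beside 7.27%). The 2 smooth muscle contractile genes also came with the floor at the 60th percentile (beside 5.99%) and the pseudocount (beside 3.34%). The 2 paralogs came at most settings. With loess scaling, the floor at the 20th percentile or the mean over probe sets, 1 smooth muscle contractile gene was at least 2-fold higher. The shares over all measured genes there were 4.20%, 5.11% and 3.03%. Of the list genes named by rule, Pgm5, Actb, Egr3, Mcl1, Junb and Egr1 came under 2-fold under at least 1 alternative. Of these rule-named genes, Cnn3 passed it without _s_at and _x_at probe sets. List genes named after their values were seen, such as Flna and Synpo2l, were otherwise not followed singly across these settings. The scalings moved the median over all genes by less than 0.1. The causes were not tested.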
